A study of Homo sapiens with 12 samples.

Results

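Keratins are the intermediate filament proteins of epithelial cells, and 55 of the 19516 genes with a symbol in the deposited table encode them. They were chosen by symbol alone (KRT, a number and at most 1 letter), which leaves out the keratin-associated proteins of hair and uses no measured value. Of the 55 members, 24 had enough reads to be tested. The remaining 31 had between 0 and 36 reads over all 12 libraries. By place of expression the family was read as 6 simple epithelial keratins (5 tested), 3 basal (3 tested), 5 stress-induced (4 tested), 14 suprabasal or site-specific (7 tested), 17 hair shaft (4 tested) and 9 root sheath keratins (0 tested), with KRT222 standing alone.

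Reads were estimated per gene in HCC1937 and MDA-MB-231, a pair of human triple-negative breast cancer lines, that is, lines from tumours without estrogen and progesterone receptors or HER2 amplification. Cultures were kept for 72 h in the presence of Kalanchoe pinnata extract (aqueous; the plant is a medicinal succulent) or without it, in 4 groups of 3 libraries. HCC1937 with extract (libraries E31, E32 and E33) received 66 µg/mL and is compared with HCC1937 control (E25, E26 and E27), all grown in RPMI 1640. MDA-MB-231 with extract (E7, E8 and E9) received 140 µg/mL and is compared with MDA-MB-231 control (E1, E2 and E3), all grown in DMEM. All samples carry the genotype label WT, no group has an engineered allele, and what control cultures received in place of extract is not stated. Line, medium and concentration therefore cannot be told apart, and nothing in the labels says that replicates were separate cultures, so the p-values measure the spread between libraries, which may be technical.

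A keratin filament is built from heterodimers, each of an acidic type I and a basic type II chain, so members are usually expressed as pairs. Simple epithelia such as the mammary gland's luminal layer use KRT8 and KRT18 with KRT7 and KRT19, while basal cells use KRT5 and KRT14, and wounding or stress induces KRT6, KRT16 and KRT17. Filaments are anchored at desmosomes and hemidesmosomes, and keratin patterns are used to class breast tumours as luminal or basal-like.

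Library totals ran from 16170342 to 31337259 counts, and 3 counts in a library equal 0.099 to 0.213 CPM. CPM is a gene's counts scaled to its library's total as adjusted by TMM (a scaling factor per library), not to gene length. E7 stood apart from the other MDA-MB-231 extract libraries, with 10.7% mitochondrial counts against 4.63% in E8 and 4.78% in E9, and rank correlations (Spearman) of 0.9667 with E8 and 0.9658 with E9. All other replicate pairs reached at least 0.9968, so results that rest on E7 are also given without it. The labelled epithelial identity was clear in HCC1937, where the adhesion molecule CDH1 had a mean of 120 CPM with extract and 186 CPM in controls. In MDA-MB-231 CDH1 had no read in any library and the mesenchymal filament gene VIM had 4290 CPM with extract and 3740 CPM in controls, against 2.83 and 13.9 CPM in HCC1937. The higher VIM mean with extract came from E7, at 5890 CPM, while E8 and E9 had 3450 and 3510 CPM and the controls 3840, 3720 and 3660 CPM. Its log2 fold change was 0.20 ± 0.18 (SE, edgeR adjusted p = 0.352), and -0.09 without E7 (adjusted p = 0.0106). EPCAM, a surface marker of epithelia, had 94.5 and 173 CPM in HCC1937 and 9.90 and 12.1 CPM in MDA-MB-231 (extract, then control). ESR1, which encodes the estrogen receptor, was at most 7.19 CPM and PGR, which encodes the progesterone receptor, at most 2.88 CPM in any group, while ERBB2, the gene of HER2, lay between 51.5 and 148 CPM.

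Markers of other cell types were low or absent. Of 5 leukocyte markers, summed levels were 5.22 to 7.35 CPM in HCC1937 with extract and 2.61 to 3.42 CPM in its controls and came mostly from CD14. The 3 endothelial markers summed to 17.5 to 19.9 CPM with extract and 23.9 to 24.5 CPM in HCC1937 controls, and the 6 fibroblast markers to 6.63 to 8.19 and 29.3 to 31.5 CPM, with COL1A2, COL3A1 and DCN without reads. In MDA-MB-231 the same fibroblast list summed to 4.69 to 9.39 CPM with extract and 22.4 to 26.6 CPM in controls. The 3 melanocyte markers stayed at or under 4.22 CPM in all libraries, with TYR without reads. The part of these levels in the keratin results was not tested.

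Transcript length and GC content moved with the extract response across all genes, and keratin transcripts are not average in either. The 24 tested keratins had a median length of 2055 nt (1390 to 5237) and a median GC content of 56.8% (37.4 to 62.9), against 3375 nt and 49.3% over the tested genes with an annotated transcript. In the plot of fold change against transcript length, most expressed keratins sit among the short, GC-rich genes, which were mostly higher with extract in both lines. The extract effects are therefore also given with an offset that takes out, library by library, what genes of like length and GC content share. Where that shared part comes from was not tested.

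**Figure D1:**
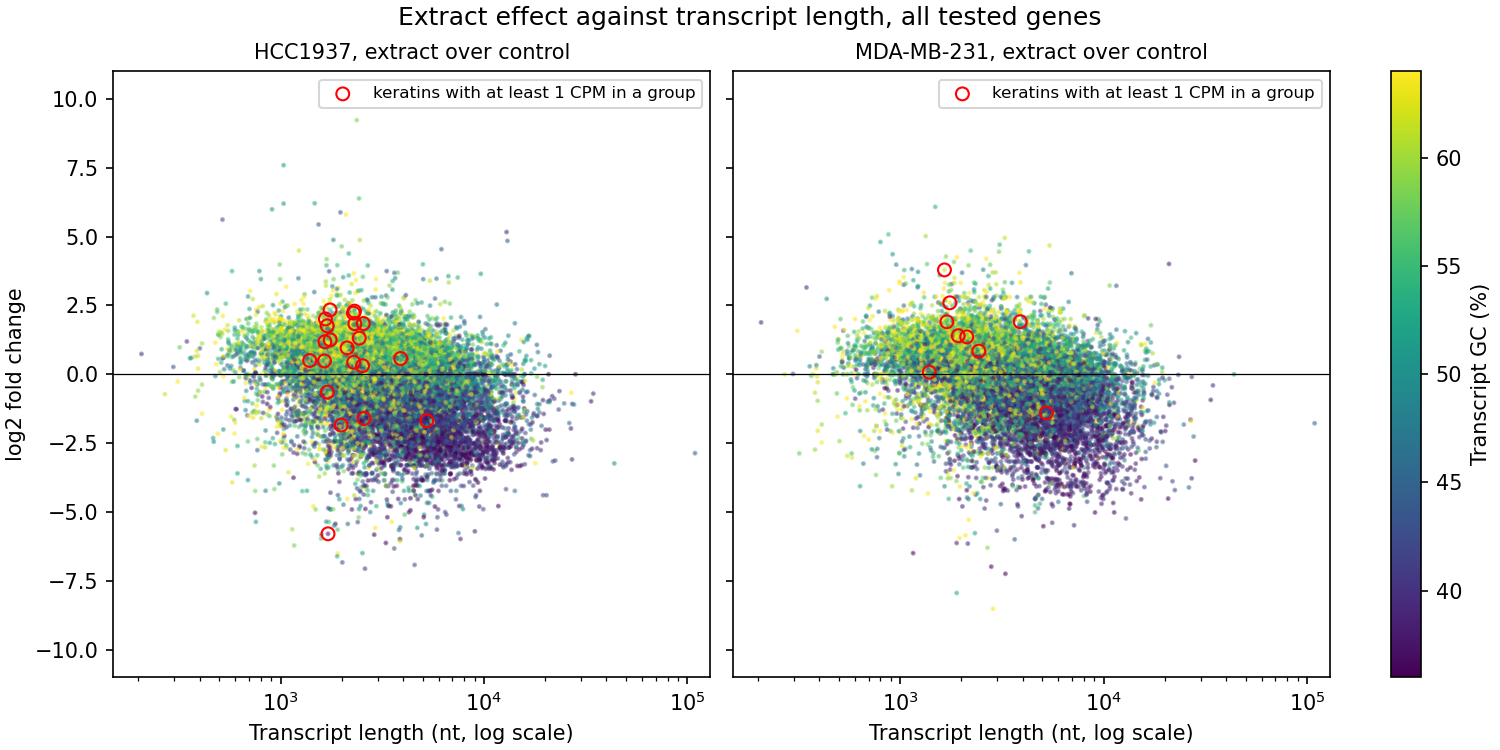
Log2 fold change, extract over control, against transcript length (nt, log axis) for all tested genes with an annotated transcript, coloured by GC content (%), in HCC1937 (left) and MDA-MB-231 (right). Red circles are keratins with a group mean of at least 1 CPM in that line; most lie between 1390 and 3894 nt, in the short part of the cloud where values above 0 prevail, and KRT15 at 5237 nt lies below 0.

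The first comparison asks which keratins the untreated lines express. HCC1937 controls had 8790 ± 212 CPM of keratin transcripts and MDA-MB-231 controls 926 ± 26.4 CPM (SD, n = 3 each). As a share of counts without TMM scaling, keratins held 1.02% and 0.104%. Of the 24 tested members, 19 were higher in HCC1937 controls, where 38.7% of all tested genes were, and 1 (KRT81) was lower, where 36.7% of all tested genes were. The median log2 difference was 5.77 over the keratins and 0.04 over all tested genes, and the offset gave the same counts (42.3% and 39.1% of all tested genes). Line and medium cannot be told apart in this comparison, whose control libraries also serve the extract comparisons.

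Per kilobase of transcript, the leading keratin of HCC1937 controls was KRT13 with 1680 CPM per kb, followed by KRT8 with 1370, KRT18 with 886, KRT7 with 618, KRT17 with 293 and KRT15 with 150. In MDA-MB-231 controls KRT8 led with 280 CPM per kb, followed by KRT18 with 193, KRT7 with 58.6, KRT10 with 14.6 and KRT15 with 9.91. MDA-MB-231 thus held the simple keratins and little else, while HCC1937 held simple, mucosal, stress-induced and basal members side by side. Simple keratins made up 52.9 ± 0.223% of keratin CPM in HCC1937 controls and 91.7 ± 0.316% in MDA-MB-231 controls, and suprabasal keratins 35.7 ± 0.252% and 5.30 ± 0.0468%.

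Several members were found in HCC1937 controls and had no read in any MDA-MB-231 control. Set against 3 counts over the MDA-MB-231 control group, KRT13 was at least 56900-fold higher in HCC1937 controls (242423 reads against 0). The same bound was at least 1170-fold for KRT5 (4988 reads), at least 598-fold for KRT6A (2550 reads) and at least 60.7-fold for KRT14 (259 reads). KRT6B, KRT23, KRT78 and KRT3 followed with bounds of 41.3-fold, 39.4-fold, 26.7-fold and 11.7-fold. Such bounds cover counting error only. KRT4 and KRT16 had 15758 and 8446 reads in HCC1937 controls and 1 read each in MDA-MB-231 controls.

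Members shared by both lines differed less. KRT7 was 10.5-fold higher in HCC1937 controls (log2 difference 3.40 ± 0.17, SE, edgeR adjusted p = 6.29e-09), KRT8 4.88-fold (2.29 ± 0.16, adjusted p = 1.21e-07), KRT18 4.60-fold (2.20 ± 0.21, adjusted p = 1.46e-06) and KRT80 2.73-fold (1.45 ± 0.13, adjusted p = 1.22e-06). KRT10 had 35.9 CPM in HCC1937 controls and 31 CPM in MDA-MB-231 controls, with overlapping libraries and a log2 difference of 0.21 ± 0.32 that missed the threshold (adjusted p = 0.565). It passed at 0.17 without library E7 (adjusted p = 0.0219), and at 0.17 when only the control libraries were fitted (adjusted p = 0.0269). KRT81, a keratin of the hair cortex, was the member that was lower in HCC1937, with a mean of 0.466 CPM against 2.35 CPM (log2 difference -2.32 ± 0.33, adjusted p = 4.96e-05).

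**Figure D2:**
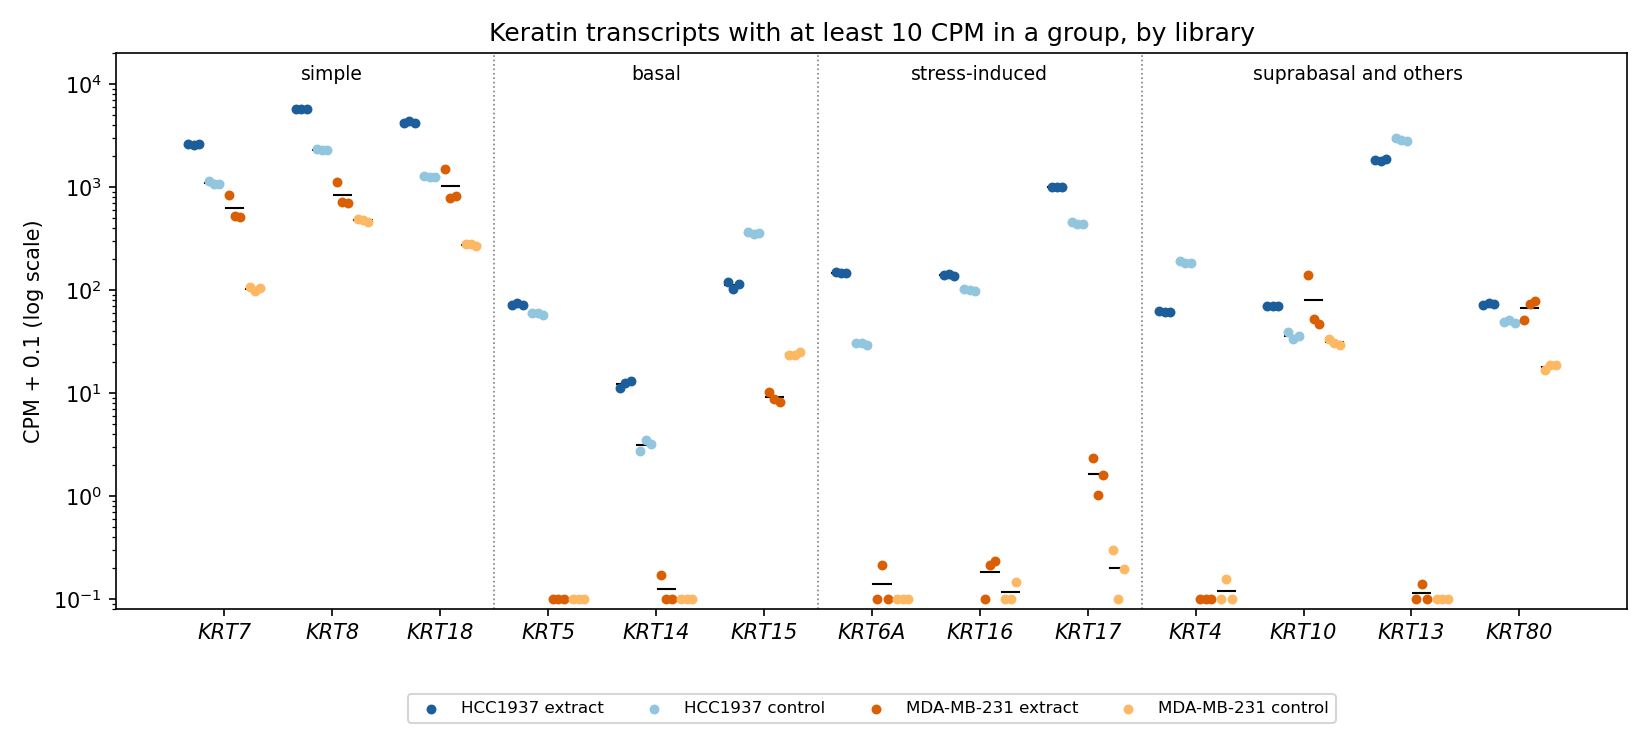
CPM + 0.1 (log axis) of the 13 keratins with a group mean of at least 10 CPM, in each library (dots) with the group mean (black line), ordered by class. HCC1937 libraries (blue, extract left of control) carry all 13 members, while KRT5, KRT14, KRT6A, KRT16, KRT4 and KRT13 of MDA-MB-231 (orange) lie at or near the bottom of the axis.

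The second comparison asks what the extract did to keratin transcripts in HCC1937. Summed keratin CPM was 16100 ± 24.2 with extract and 8790 ± 212 in controls (SD, n = 3 each). As a share of counts without TMM scaling the step was smaller, at 1.37 ± 0.00559% with extract and 1.02 ± 0.0298% in controls. The TMM factors were 0.846 to 0.851 with extract and 1.157 to 1.168 in controls, so the size of the rise depends on this scaling. Of the 24 tested members, 15 rose, where 32.7% of all tested genes did, and 5 fell, where 39.1% of all tested genes did. Their median log2 fold change was 0.82, and that of all tested genes was -0.16. With the length and GC offset, 8 members rose and 9 fell (25.9% and 41.5% of all tested genes), with a median of -0.02 beside -0.22 over all tested genes.

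In MDA-MB-231, the third comparison, summed keratin CPM was 2660 ± 861 with extract and 926 ± 26.4 in controls (SD, n = 3 each), and the spread with extract came from E7, at 3650 CPM beside 2150 and 2160 CPM in E8 and E9. Without TMM scaling, keratins held 0.235 ± 0.0375% and 0.104 ± 0.0029% of counts. Of the 24 tested members, 7 rose, where 33% of all tested genes did, and 2 fell, where 32.8% of all tested genes did. The median over the 24 was 0.46, beside 0 over all tested genes. Many of the 24 had few or no reads in this line and could hardly be called there. Of the 9 keratins with a group mean of at least 1 CPM in MDA-MB-231, 7 rose and 1 fell, with a median of 1.40. KRT17 and KRT19 reached that level only with extract. With the offset, 4 of these 9 rose and 1 fell, with a median of 0.62. Over all 24, 4 members rose and 3 fell with the offset (29.9% and 35.0% of all tested genes), with a median of 0.09 beside -0.06.

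The difference of the 2 extract effects was tested directly (HCC1937 minus MDA-MB-231). KRT32 was higher, where 11.5% of all tested genes were, and KRT7, KRT17 and KRT80 were lower, where 20.6% were. With the offset these 4 were called again, where 15.2% of all tested genes were higher and 25% lower. This comparison uses the same libraries as the extract comparison of each line. Since the lines received different concentrations in different media, these differences belong to the pair of cultures and not to the lines alone. In bulk RNA, fewer cells of a type and less RNA per cell cannot be told apart, and all values are relative to the other transcripts of a library.

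Simple epithelial keratins were the most abundant class in every group by summed CPM, and their main members KRT7, KRT8 and KRT18 rose in both lines. Summed over the 6 genes they had 12600 ± 44.4 CPM in HCC1937 with extract and 4650 ± 104 CPM in its controls, and 2490 ± 819 CPM in MDA-MB-231 with extract and 850 ± 26.7 CPM in its controls (SD, n = 3 each). In each line 3 of the 5 tested members rose (32.7% of all tested genes in HCC1937 and 33% in MDA-MB-231), and KRT23 fell in HCC1937 (39.1% of all tested genes). With the offset 3 rose and 2 fell in HCC1937 (25.9% and 41.5% of all tested genes), and 2 rose in MDA-MB-231 (29.9% of all tested genes).

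KRT8 (Entrez 3856; GRCh38 chromosome 12, 52897187 to 52949954, minus strand) encodes the type II chain of the primary simple pair. It had 5730, 5720 and 5710 CPM in HCC1937 extract libraries, against 2360, 2270 and 2280 CPM in controls. In MDA-MB-231 it had 1120, 715 and 699 CPM with extract, E7 being the highest, against 486, 479 and 452 CPM in controls. Each extract library lay above each control library of its line. The log2 fold change was 1.31 ± 0.16 (SE) in HCC1937 (2.48-fold, adjusted p = 1.32e-05) and 0.84 ± 0.16 in MDA-MB-231 (1.79-fold, adjusted p = 0.000559). With the offset KRT8 kept its rise in HCC1937 at 0.52 ± 0.12 (adjusted p = 0.00241), while MDA-MB-231 gave 0.18 ± 0.12 (adjusted p = 0.208), and -0.04 when E7 was left out as well. The difference between the lines was 0.47 ± 0.22 (adjusted p = 0.125) and reached 0.75 without E7 (adjusted p = 3.48e-14).

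KRT18 (Entrez 3875; chromosome 12, 52948871 to 52952901, plus strand), its type I partner, had 4220, 4340 and 4210 CPM in HCC1937 with extract, against 1280, 1240 and 1260 CPM in controls. In MDA-MB-231 its extract libraries had 1490 (E7), 777 and 809 CPM, against 279, 277 and 264 CPM in controls. The groups did not overlap in either line, and again E7 was the highest. KRT18 rose by a log2 fold change of 1.76 ± 0.21 in HCC1937 (3.38-fold, adjusted p = 9.99e-06) and of 1.90 ± 0.21 in MDA-MB-231 (3.74-fold, adjusted p = 7.11e-06). Both rises held with the offset, at 0.69 ± 0.10 (adjusted p = 3.47e-05) and 1.00 ± 0.10 (adjusted p = 1.41e-06). The difference between the lines, -0.15 ± 0.28 (adjusted p = 0.744), turned to 0.24 without E7 (adjusted p = 3.01e-05). With the offset without E7 it was -0.13 (adjusted p = 0.00182), so its sign depends on the offset. Of the 31-base words of annotated KRT18 transcripts, 53.3% also occur in pseudogenes, and the annotated span overlaps that of KRT8 on the other strand, so reads of these genes could be shared; whether counting used strand is not given in the sources used here.

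Within this pair the type I partner gained on the type II partner in MDA-MB-231. Per kilobase, KRT18 over KRT8 was 1.41 ± 0.146 in MDA-MB-231 with extract and 0.688 ± 0.00519 in its controls, and in E8 and E9 alone it was 1.29 and 1.37. In HCC1937 the ratio was 0.884 ± 0.0151 with extract and 0.649 ± 0.00724 in controls (SD, n = 3 each). The lowest extract library lay above the highest control library in both lines.

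KRT7 (Entrez 3855; chromosome 12, 52232520 to 52252186), a type II keratin of ducts and glands, had 2600, 2540 and 2600 CPM in HCC1937 with extract, against 1130, 1060 and 1060 CPM in controls. In MDA-MB-231 it had 828 (E7), 520 and 514 CPM with extract, against 106, 98.6 and 104 CPM in controls. Extract libraries were above control libraries throughout, and the step was wider in MDA-MB-231. Its log2 fold change was 1.25 ± 0.16 in HCC1937 (2.38-fold, adjusted p = 1.94e-05) and 2.59 ± 0.17 in MDA-MB-231 (6.03-fold, adjusted p = 8.95e-08). With the offset these were 0.15 ± 0.06 (adjusted p = 0.034) and 1.66 ± 0.06 (adjusted p = 3.21e-10). The rise was smaller in HCC1937, by -1.34 ± 0.22 on the log2 scale (adjusted p = 0.000856), by -1.51 ± 0.08 with the offset and by -1.06 without E7. KRT7 over KRT8 per kilobase was 0.434 ± 0.0055 in HCC1937 with extract and 0.452 ± 0.00594 in its controls, but 0.706 ± 0.0052 in MDA-MB-231 with extract and 0.210 ± 0.0113 in its controls.

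The other simple keratins were scarce. KRT19, the tailless type I keratin of luminal cells, had 7.20, 7.80 and 6.38 CPM in HCC1937 with extract and 4.76, 5.18 and 5.17 CPM in controls, with a log2 fold change of 0.50 ± 0.39 (adjusted p = 0.268). That value depended on the processing: it passed at 0.52 without E7 (adjusted p = 0.0217) and at 0.55 when only the HCC1937 libraries were fitted (adjusted p = 0.000908), and with the offset it was -0.71 ± 0.30 (adjusted p = 0.0498). In MDA-MB-231 KRT19 had 2.06, 0.691 and 0.492 CPM with extract and 1.23, 1.38 and 0.236 CPM in controls, which overlap. KRT23, an inducible type I keratin, fell in HCC1937 to 0.549 CPM with extract against 2.00 CPM in controls (log2 fold change -1.85 ± 0.33, adjusted p = 0.00136; 42 reads against 168), and with the offset the value was -2.54 ± 0.33 (adjusted p = 0.000156). It had no read in MDA-MB-231. KRT20, of intestinal epithelium, had 11 reads in all.

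Basal keratins moved apart from each other. KRT5 (Entrez 3852; chromosome 12, 52514575 to 52520687), the type II chain of basal and myoepithelial cells, had 71.9, 75.3 and 71.6 CPM in HCC1937 with extract, against 59.3, 60.0 and 57.2 CPM in controls. Its groups did not overlap, and the log2 fold change was 0.31 ± 0.08 (1.24-fold, adjusted p = 0.0103). With the offset the direction turned to -0.57 ± 0.07 (adjusted p = 8.72e-05), so no direction can be given for KRT5 apart from the treatment of length and GC content. KRT5 had no read in the 6 MDA-MB-231 libraries.

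KRT14 (Entrez 3861; chromosome 17, 41582279 to 41586921), the type I partner of KRT5, had 11.1, 12.5 and 13.0 CPM in HCC1937 with extract, against 2.65, 3.40 and 3.06 CPM in controls. All extract libraries were above all controls. It rose by a log2 fold change of 2.01 ± 0.20 (4.02-fold, adjusted p = 1.03e-05) and by 0.87 ± 0.18 with the offset (adjusted p = 0.00154). In MDA-MB-231 a single read was found, in E7. Of the 31-base words of KRT14, 21.1% occur in other keratins and 40.9% in pseudogenes. Its 932 and 259 HCC1937 reads (extract, then control) stand beside 76539 and 37610 of KRT17, so part of them could be shared.

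KRT15 (Entrez 3866; chromosome 17, 41513743 to 41522529), a type I keratin of basal cells and of the hair follicle bulge, was the basal member found in both lines and fell in both. It had 118, 102 and 114 CPM in HCC1937 with extract, against 365, 353 and 359 CPM in controls. In MDA-MB-231 it had 10.2, 8.63 and 8.14 CPM with extract, against 23.3, 23.1 and 24.7 CPM in controls. No extract library reached the lowest control of its line. The log2 fold changes were -1.69 ± 0.09 (3.22-fold lower, adjusted p = 1.79e-08) and -1.40 ± 0.10 (2.65-fold lower, adjusted p = 1.78e-07), and the difference between the lines was -0.28 ± 0.13 (adjusted p = 0.126). The offset gave -2.20 ± 0.16 and -1.70 ± 0.18. The longest annotated KRT15 transcript (5237 nt) is much longer than the transcript with the longest coding sequence (2394 nt), and with the latter length in the offset the fold changes were -2.47 and -1.96. That offset also gave a called difference between the lines, at -0.52 (adjusted p = 0.00658). In HCC1937 the ratio of KRT15 to KRT14 per kilobase was 6.37 ± 0.876 with extract and 83 ± 11.9 in controls. That ratio carries the limit on KRT14 reads given above.

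**Figure D3:**
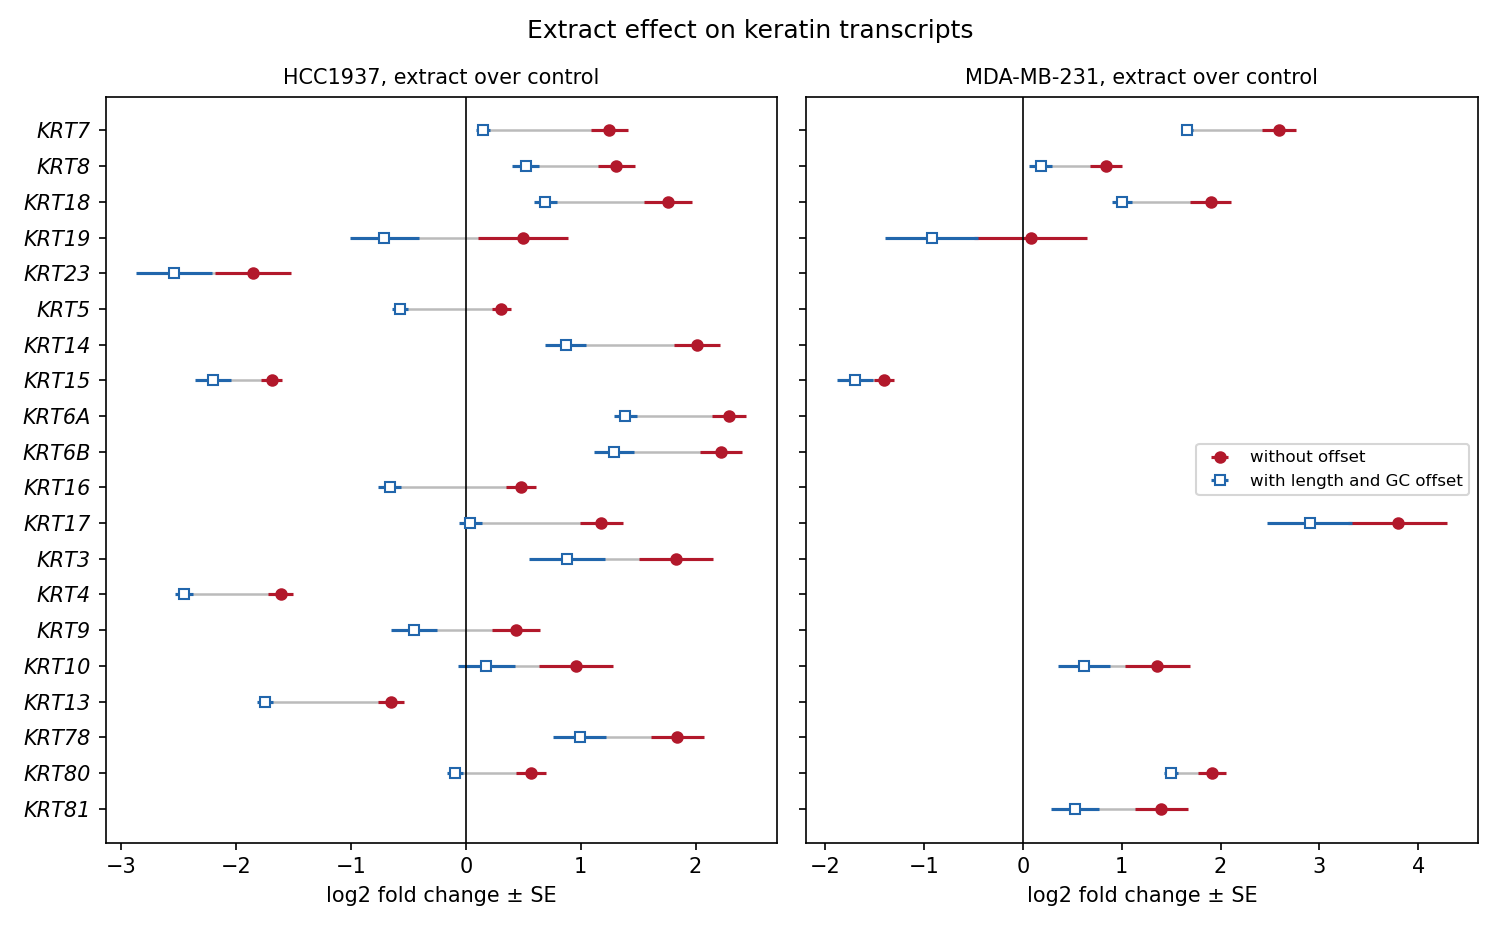
Log2 fold change ± SE, extract over control, of keratins with a group mean of at least 1 CPM (KRT34 and KRT222 are given in the text only), without offset (red circles) and with the length and GC offset (open blue squares), in HCC1937 (left) and MDA-MB-231 (right). The offset moves the plotted values to the left; in HCC1937 it carries KRT5, KRT16, KRT19, KRT9 and KRT80 across 0, KRT16 to -0.66 and KRT80 to -0.09, and KRT4, KRT13, KRT15 and KRT23 stay below 0 either way.

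Stress-induced keratins were abundant in HCC1937, where the 4 tested members rose (32.7% of all tested genes did). Their sum was 1300 ± 9.21 CPM with extract and 576 ± 14.3 CPM in controls, against 1.66 ± 0.528 and 0.113 ± 0.102 CPM in MDA-MB-231 (SD, n = 3 each). With the offset, 2 of the 4 kept their rise (KRT6A and KRT6B), KRT17 was not called and KRT16 fell (25.9% and 41.5% of all tested genes rose and fell).

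KRT6A (Entrez 3853; chromosome 12, 52487174 to 52493257), the main KRT6 gene of wounded epidermis, had 150, 146 and 146 CPM in HCC1937 with extract, against 30.5, 30.4 and 29.4 CPM in controls. KRT6B (Entrez 3854; chromosome 12, 52446651 to 52452126) had 9.67, 10.1 and 9.24 CPM with extract, against 2.11, 2.28 and 1.83 CPM in controls. Extract and control libraries were far apart for each gene. KRT6A rose by a log2 fold change of 2.29 ± 0.15 (4.89-fold, adjusted p = 4.7e-07) and KRT6B by 2.22 ± 0.18 (4.66-fold, adjusted p = 1.12e-05), and with the offset by 1.39 ± 0.10 and 1.29 ± 0.17, which were still called. KRT6C had 16 reads with extract and 4 in controls and was not tested. In MDA-MB-231 KRT6A had 3 reads, all in E8, and none in controls (adjusted p = 0.0659, and 0.0441 without E7), and KRT6B had no read.

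The KRT6 values rest on very similar sequences, which is why they are shown here. Over 1692 coding bases KRT6A and KRT6B are 97.5% identical, KRT6A and KRT6C 97.9%, and KRT6B and KRT6C 98.5%. Below are coding bases 628 to 747 of each gene (chromosome 12; GENCODE release 29 transcripts, GRCh38, 5′ to 3′ on the coding strand), the window with 10 of the 51 positions at which the 3 genes differ. Capitals mark these positions.
KRT6A: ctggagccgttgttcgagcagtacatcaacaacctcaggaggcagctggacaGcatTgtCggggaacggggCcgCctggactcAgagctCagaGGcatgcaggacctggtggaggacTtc
KRT6B: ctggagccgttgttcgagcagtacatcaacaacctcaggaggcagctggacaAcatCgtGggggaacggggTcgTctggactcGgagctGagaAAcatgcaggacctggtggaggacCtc
KRT6C: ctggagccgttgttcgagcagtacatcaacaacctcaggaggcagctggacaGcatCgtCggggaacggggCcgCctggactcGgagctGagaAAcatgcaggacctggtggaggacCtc
Of the 31-base words of their transcripts, 52.2% (KRT6A), 58.3% (KRT6B) and 61.7% (KRT6C) also occur in another keratin, so the split of reads among them is uncertain. KRT6B stood at 6.58 ± 0.326% of the KRT6A reads in HCC1937 with extract and at 6.88 ± 0.638% in controls (SD, n = 3), a difference smaller than the spread between libraries. Separate regulation of KRT6B can therefore not be read from these counts.

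KRT17 (Entrez 3872; chromosome 17, 41619441 to 41624842), a type I keratin of basal-like tumours and wounded skin, had 992, 1010 and 1010 CPM in HCC1937 with extract, against 459, 437 and 436 CPM in controls. In MDA-MB-231 it was scarce, with 2.21 (E7), 0.921 and 1.48 CPM with extract, against 0.197, 0 and 0.0942 CPM in controls, from 88 and 6 reads. Extract libraries were above controls in both lines. KRT17 rose by a log2 fold change of 1.18 ± 0.19 in HCC1937 (2.26-fold, adjusted p = 0.000166) and of 3.79 ± 0.50 in MDA-MB-231 (adjusted p = 3.49e-05). With the offset HCC1937 gave 0.04 ± 0.10 (adjusted p = 0.74), and MDA-MB-231 kept a rise of 2.90 ± 0.43 (adjusted p = 7.13e-05). The offset without E7 gave 0.07 in HCC1937, which was called (adjusted p = 0.033). The rise was smaller in HCC1937, by -2.61 ± 0.57 on the log2 scale (adjusted p = 0.00494) and by -2.85 with the offset. Without control library E1, which held 4 of the 6 control reads, the MDA-MB-231 value was 4.71 and the difference -3.53, both still called.

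KRT16 (Entrez 3868; chromosome 17, 41609778 to 41615899), the usual type I partner of KRT6, had 140, 143 and 135 CPM in HCC1937 with extract, against 101, 99.7 and 98.4 CPM in controls. The groups did not overlap, and the rise was small, at 0.48 ± 0.13 (1.40-fold, adjusted p = 0.00588). It turned to -0.66 ± 0.10 with the offset (adjusted p = 6.66e-05). As for KRT5, no direction can be given for KRT16 apart from the treatment of length and GC content. KRT14, KRT16 and KRT17 also share sequence: 18.2% of the KRT16 words occur in KRT14, and 33.5% in pseudogenes. In MDA-MB-231 KRT16 had 6 reads with extract and 1 in controls (log2 fold change 2.19 ± 0.88, adjusted p = 0.077; adjusted p = 0.0327 without E7).

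Among suprabasal and site-specific keratins, the mucosal pair fell while other members rose. The class summed to 2040 ± 28.7 CPM in HCC1937 with extract and 3140 ± 91.6 CPM in its controls, and to 147 ± 38.3 and 49.1 ± 1.05 CPM in MDA-MB-231 (SD, n = 3 each). In HCC1937, 4 of the 7 tested members rose, 2 fell and KRT9, of palms and soles, was not called (32.7% of all tested genes rose and 39.1% fell). With the offset 2 rose and 2 fell there (25.9% and 41.5% of all tested genes). In MDA-MB-231, 2 rose and 5 were not called (33% of all tested genes rose and 32.8% fell), and with the offset 1 rose (29.9% of all tested genes). The 5 (KRT3, KRT4, KRT9, KRT13 and KRT78) had at most 1 read each in MDA-MB-231, so they could not be called there.

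KRT13 (Entrez 3860; chromosome 17, 41500981 to 41505705), the type I keratin of mucosal stratified epithelium, had 1820, 1790 and 1860 CPM in HCC1937 with extract, against 2960, 2830 and 2800 CPM in controls. KRT4 (Entrez 3851; chromosome 12, 52806549 to 52814551), its type II partner, had 61.9, 61.0 and 60.5 CPM with extract, against 192, 184 and 182 CPM in controls. Both lay below every control library. The log2 fold change was -0.65 ± 0.11 for KRT13 (1.57-fold lower, adjusted p = 0.000532) and -1.61 ± 0.11 for KRT4 (3.04-fold lower, adjusted p = 8.03e-07). With the offset the falls were wider, at -1.75 ± 0.07 and -2.45 ± 0.08. Per kilobase, KRT13 exceeded KRT4 by 45.2 ± 1.15 times with extract and 23.3 ± 0.0367 times in controls. KRT13, the leading keratin of HCC1937 controls, came after KRT8, KRT18 and KRT7 with extract, at 1070 CPM per kb against 3390, 3000 and 1470.

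KRT10 (Entrez 3858; chromosome 17, 40818117 to 40822595), the type I keratin of differentiating epidermis, had 69.7, 70.0 and 69.3 CPM in HCC1937 with extract, against 38.8, 33.1 and 35.8 CPM in controls. In MDA-MB-231 it had 140 (E7), 52.6 and 46.9 CPM with extract, against 33.5, 30.2 and 29.3 CPM in controls. Extract libraries exceeded controls in both lines, and in MDA-MB-231 E7 had more than the other extract libraries together. The log2 fold change was 0.96 ± 0.32 in HCC1937 (1.94-fold, adjusted p = 0.0186) and 1.36 ± 0.33 in MDA-MB-231 (2.56-fold, adjusted p = 0.00312). Without E7 the MDA-MB-231 value was 0.69 (adjusted p = 3.51e-09). The HCC1937 rise missed the threshold without E26 (0.90, adjusted p = 0.0588). As all libraries share 1 estimate of the spread, E7 also bears on HCC1937, where the value without E7 was 0.98 ± 0.06 (adjusted p = 4.08e-14). Neither rise was called with the offset (0.18 ± 0.25, adjusted p = 0.552, and 0.62 ± 0.26, adjusted p = 0.0505). With the offset without E7, HCC1937 was called at 0.20 (adjusted p = 0.0019) and MDA-MB-231 was not, at 0.10 (adjusted p = 0.203). The difference between the lines was -0.40 ± 0.45 (adjusted p = 0.546) and turned to 0.29 without E7 (adjusted p = 0.014). Its epidermal partner KRT1 had 2 reads in all.

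KRT80 (Entrez 144501; chromosome 12, 52168996 to 52192000), a type II keratin found near desmosomes in many epithelia, had 70.5, 75.2 and 72.5 CPM in HCC1937 with extract, against 49.0, 50.4 and 47.3 CPM in controls. In MDA-MB-231 it had 51.2 (E7), 72.6 and 77.2 CPM with extract, against 16.5, 18.6 and 18.6 CPM in controls. Here E7 was the lowest extract library, and extract and control still did not overlap. KRT80 rose by 0.57 ± 0.13 in HCC1937 (1.49-fold, adjusted p = 0.00182) and by 1.91 ± 0.14 in MDA-MB-231 (3.75-fold, adjusted p = 2.16e-07). With the offset the HCC1937 value was -0.09 ± 0.07 (adjusted p = 0.242) and the MDA-MB-231 rise 1.50 ± 0.07 (adjusted p = 2.8e-09). The effect was smaller in HCC1937, by -1.33 ± 0.19 (adjusted p = 0.000273). With extract the lines stood at 18.8 and 17.4 CPM per kb (HCC1937, then MDA-MB-231), after 12.7 and 4.63 in controls.

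KRT3, a type II keratin of the corneal epithelium, and KRT78, a type II keratin of stratified epithelia, were found in HCC1937 alone. KRT3 had 2.51, 2.33 and 1.51 CPM with extract, against 0.538, 0.594 and 0.633 CPM in controls (log2 fold change 1.83 ± 0.32, adjusted p = 0.00114). KRT78 had 4.90, 4.98 and 4.53 CPM with extract, against 1.11, 1.62 and 1.27 CPM in controls (1.84 ± 0.23, adjusted p = 0.000176). Both rises held with the offset, at 0.88 ± 0.33 (adjusted p = 0.0424) and 0.99 ± 0.23 (adjusted p = 0.00484). KRT9 had 4.95 ± 0.598 CPM with extract and 3.65 ± 0.371 CPM in controls (0.44 ± 0.21, adjusted p = 0.093); it passed without E7 (0.46, adjusted p = 0.0407), in the fit of HCC1937 alone (0.49, adjusted p = 0.0108) and with DESeq2 (0.53, adjusted p = 0.0119), and with the offset it was -0.45 (adjusted p = 0.0751).

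KRT3 and KRT4 are neighbours on chromosome 12 and went opposite ways in HCC1937, and KRT10 was higher with extract in both lines, so the sequences before their start sites are shown. They were chosen with these values known from the 34 keratins (8 of them tested) that the RefSeq promoter table used here lists. Each line gives the 250 bases before the start, from RefSeq on GRCh38.p14, minus strand, 5′ to 3′: KRT3 at chr12:52796118-52796367, KRT4 at chr12:52814117-52814366 and KRT10 at chr17:40822615-40822864. Capitals mark the motif ATATAA, which resembles a core promoter element, searched on both strands and picked after the sequences were seen.
KRT3: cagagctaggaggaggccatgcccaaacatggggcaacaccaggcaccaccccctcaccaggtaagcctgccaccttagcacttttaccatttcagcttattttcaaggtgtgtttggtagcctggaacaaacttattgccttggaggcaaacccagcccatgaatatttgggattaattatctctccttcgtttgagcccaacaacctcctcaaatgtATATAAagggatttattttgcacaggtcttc
KRT4: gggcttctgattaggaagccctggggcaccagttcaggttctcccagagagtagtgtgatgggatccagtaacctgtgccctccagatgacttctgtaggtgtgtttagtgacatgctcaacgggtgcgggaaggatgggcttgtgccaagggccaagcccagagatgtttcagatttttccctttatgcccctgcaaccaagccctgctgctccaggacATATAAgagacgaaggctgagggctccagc
KRT10: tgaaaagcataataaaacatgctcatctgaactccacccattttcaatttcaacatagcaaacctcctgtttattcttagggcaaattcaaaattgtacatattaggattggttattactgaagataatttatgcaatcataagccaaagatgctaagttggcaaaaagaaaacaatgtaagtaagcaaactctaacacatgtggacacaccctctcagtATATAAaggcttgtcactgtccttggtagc
The motif begins 31 bases before the start in KRT3 and 30 bases before it in KRT4 and KRT10. It occurs in the same window of 2679 of 35116 promoters (7.63%) and of 16 of 38 keratin entries. KRT3, which rose, and KRT4, which fell, both hold it. As the motif was picked from these sequences, its presence in them cannot bear on the directions, and a tie to expression was not tested.

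Hair shaft keratins were near the detection limit in HCC1937. The class summed to 3.78 ± 0.469 CPM with extract and 2.28 ± 0.149 CPM in HCC1937 controls, and to 7.43 ± 1.19 and 3.67 ± 0.937 CPM in MDA-MB-231. KRT81 led it in MDA-MB-231, with 8.25 (E7), 5.22 and 5.41 CPM with extract, against 2.56, 1.71 and 2.78 CPM in controls. It rose there by 1.40 ± 0.27 (2.64-fold, adjusted p = 0.000734) and by 0.53 ± 0.24 with the offset, which was not called (adjusted p = 0.0672). In HCC1937 KRT81 had 0.764 ± 0.0825 and 0.466 ± 0.184 CPM (0.69 ± 0.36, adjusted p = 0.106, and -0.36 ± 0.34 with the offset). KRT86 has an annotated span that holds KRT81 on the other strand and overlaps that of KRT7, so reads of these genes could be shared. It had means of 0.528 and 0.964 CPM in HCC1937 (extract, then control) and 0.300 and 0.542 CPM in MDA-MB-231. It was not called in either line without the offset (-0.87 ± 0.50, adjusted p = 0.14, and -0.83 ± 0.63, adjusted p = 0.267), but was lower in both with it (-1.86 ± 0.49, adjusted p = 0.00489, and -1.56 ± 0.62, adjusted p = 0.0428). Of their 31-base words, 49.9% of KRT81 words and 40.1% of KRT86 words occur in other keratins, so their split is uncertain.

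KRT32, of the hair cuticle, was higher with extract in HCC1937 and lower in MDA-MB-231, at very low levels. It had 0.567, 0.563 and 0.754 CPM in HCC1937 with extract and 0.269, 0.231 and 0.211 CPM in controls (48 and 20 reads; log2 fold change 1.39 ± 0.35, adjusted p = 0.00389). In MDA-MB-231 it had 0.142, 0.192 and 0.0895 CPM with extract and 0.542, 0.276 and 0.330 CPM in controls (9 and 23 reads; -1.39 ± 0.45, adjusted p = 0.0175). The effects differed by 2.78 ± 0.57 (adjusted p = 0.00342). The MDA-MB-231 fall lost its call without E1 (adjusted p = 0.127), without E7 (adjusted p = 0.0794) or without E9 (adjusted p = 0.0773), and the HCC1937 rise with the offset (0.31 ± 0.37, adjusted p = 0.485). KRT34, a hair cortex keratin, was called in HCC1937 with 107 and 23 reads (2.34 ± 0.97, adjusted p = 0.0475). That call was lost when any of 8 libraries was left out (E1, E3, E8, E9, E26, E27, E31 or E32; 1.72 without E26), and the value was 3.32 without E25. It was also lost with the offset (1.39 ± 0.96, adjusted p = 0.217) and in DESeq2 (adjusted p = 0.0943).

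KRT222, a keratin-like gene of low GC content (37.4%), fell in HCC1937. It had 0, 0.0402 and 0 CPM with extract, against 1.08, 0.891 and 1.09 CPM in controls, from 1 and 86 reads (adjusted p = 8.05e-05, and 0.000276 with the offset). As 58.3% of its words occur in another gene, its reads may be shared. Root sheath keratins had at most 5 reads each over all libraries, and KRT31, KRT35, KRT82, KRT84, KRT71 and KRT73 had none.

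The makeup of keratin transcripts differed between extract and control in both lines. Simple keratins made up 78.0 ± 0.198% of keratin CPM in HCC1937 with extract and 52.9 ± 0.223% in its controls, and suprabasal keratins 12.7 ± 0.188% and 35.7 ± 0.252%. Basal keratins were 1.22 ± 0.0365% and 4.78 ± 0.0557%, and stress-induced ones 8.08 ± 0.0455% and 6.55 ± 0.0161%. In MDA-MB-231 simple keratins made up 93.7 ± 0.419% with extract and 91.7 ± 0.316% in controls (SD, n = 3 each). There the basal share was 0.353 ± 0.0623% and 2.56 ± 0.162%, the stress-induced share 0.0628 ± 0.0107% and 0.0122 ± 0.0108%, and the suprabasal share 5.59 ± 0.313% and 5.30 ± 0.0468%. Type I over type II transcripts per kilobase was 0.982 ± 0.012 in HCC1937 with extract and 1.47 ± 0.00221 in its controls, and 0.855 ± 0.102 and 0.633 ± 0.00254 in MDA-MB-231. The ratio lay nearer to 1 with extract in both lines. No test was run on these shares and ratios, and they carry no offset.

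**Figure D4:**
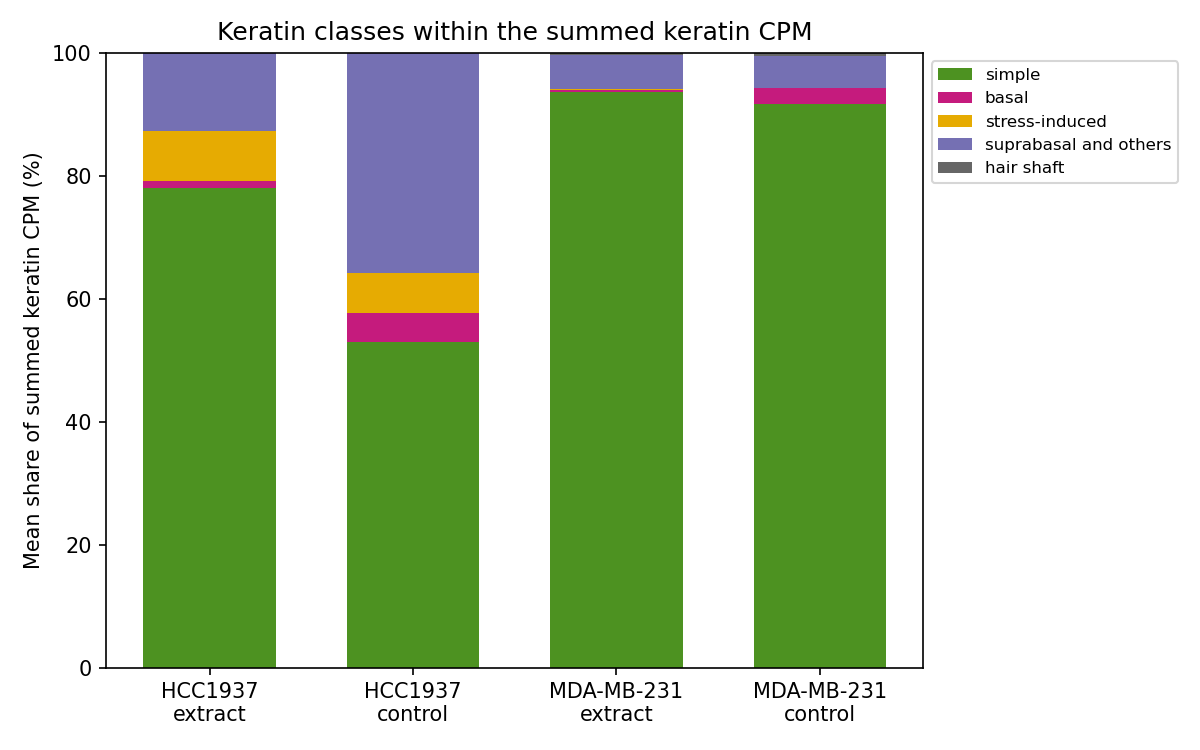
Mean share (%) of summed keratin CPM held by each class in the 4 groups (3 libraries each), extract left of control. Simple keratins hold 78.0% in HCC1937 with extract and 52.9% in its controls, and 93.7% and 91.7% in MDA-MB-231 with extract and in its controls.

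Genes that work with keratins were read from 4 lists. Of 20 tested desmosome and linker genes, which tie keratin filaments to the membrane, 5 rose and 10 fell in HCC1937 (32.7% and 39.1% of all tested genes) and 3 rose and 9 fell in MDA-MB-231 (33% and 32.8% of all tested genes), with medians of -0.42 and -0.12 beside -0.16 and 0 over all tested genes. Without E7, 8 rose in HCC1937. DST, which anchors filaments to hemidesmosomes, had 18.8 ± 0.568 CPM with extract and 165 ± 12.8 in HCC1937 controls (-3.13 ± 0.26, adjusted p = 5.58e-07), and 20.4 ± 8.75 and 380 ± 34.3 CPM in MDA-MB-231 (-4.21 ± 0.27, adjusted p = 1.02e-07). Its falls held with the offset, at -1.56 and -2.67. PKP3, a desmosomal plaque protein, rose by 1.44 ± 0.09 and 1.36 ± 0.09 (0.64 and 0.63 with the offset). DSC2, a desmosomal cadherin, fell by 1.93 and 1.84 on the log2 scale, but was not called with the offset, at -0.11 and -0.06.

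Other intermediate filament genes gave 3 rises and 3 falls among 11 tested in HCC1937 (32.7% and 39.1% of all tested genes), and 3 rises and 1 fall in MDA-MB-231 (33% and 32.8% of all tested genes). LMNA, which encodes the nuclear lamins A and C, rose by 1.33 ± 0.08 in HCC1937 (adjusted p = 3e-08) and by 0.71 ± 0.08 in MDA-MB-231 (adjusted p = 6.54e-06), and with the offset by 0.54 and 0.22, still called. VIM fell in HCC1937 (-2.29 ± 0.21, adjusted p = 1.19e-06), as did LMNB1, which encodes lamin B1 (-0.74 ± 0.12, adjusted p = 0.000129), at -3.17 and -0.99 with the offset. In MDA-MB-231, SYNM (synemin) fell by 1.62 on the log2 scale and LMNB2 (lamin B2) rose by 1.01, at -1.81 and 0.60 with the offset. With the offset the HCC1937 counts were 1 and 7 (25.9% and 41.5% of all tested genes) and those of MDA-MB-231 were 2 and 3 (29.9% and 35.0%). Without E7 there were 5 falls in HCC1937 and 2 in MDA-MB-231.

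Of 19 tested regulators of epithelial genes, 5 rose and 11 fell in HCC1937 (32.7% and 39.1% of all tested genes) and 4 rose and 5 fell in MDA-MB-231 (33% and 32.8% of all tested genes), with medians of -0.37 and -0.49. In HCC1937 the counts were 3 rises without E27 and 7 falls without E31. KLF5, a factor of proliferating epithelium, had 132 ± 3.70 CPM with extract and 422 ± 14.6 CPM in HCC1937 controls (-1.68 ± 0.09, adjusted p = 1.9e-08; -1.72 with the offset). GRHL1, a grainyhead factor that acts on desmosomal genes, fell by 2.15 on the log2 scale there (-1.87 with the offset). EHF, an epithelial ETS factor, fell in both lines (-1.78 ± 0.13 and -2.81 ± 0.26 in HCC1937 and MDA-MB-231; -1.17 and -2.52 with the offset). KLF4 and TFAP2C rose in MDA-MB-231, by 0.83 ± 0.08 and 1.33 ± 0.13, and by 0.25 and 0.85 with the offset.

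Of 18 tested genes of the cornified envelope, the cross-linked shell of dying keratinocytes, 8 rose and 6 fell in HCC1937 (32.7% and 39.1% of all tested genes), and with the offset 4 rose and 11 fell (25.9% and 41.5%). CALML5, a calcium-binding protein of differentiating epidermis, rose by 1.93 ± 0.09 (adjusted p = 6.11e-07; 0.67 with the offset), and SPRR1B, a cornified envelope precursor, by 1.44 ± 0.10 (0.29 with the offset). KLK5, an epidermal protease, rose by 0.68 ± 0.08 and turned to -0.45 with the offset. In MDA-MB-231, 3 rose (33% of all tested genes): DMKN, IVL and SPRR2D, of which IVL and SPRR2D stood under 0.15 CPM. With the offset none of these 3 was called and 2 of the 18 fell (35.0% of all tested genes). Without E2, E3, E8 or E32 the count of rises was 1.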

How the data were processed

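Estimated read counts per gene were read for 12 libraries, which the sample titles put into 4 groups of 3. Per the submitters' processing notes, reads were checked with FastQC 0.12.1, trimmed with fastp 0.23.4 and quantified with Salmon 1.10.3 on GRCh38, and the authors tested with DESeq2 in R 4.4.1. Poly-T capture and a stranded kit for total RNA are both named, per the labels. The deposited expected counts have no scaling for depth (annotation release, summing to genes and strand setting: not given in the sources used here). Of 19517 genes in the table, 1 lacks a symbol and has 0 reads. Of all values 52.8% were not whole and were rounded, by at most 0.5.

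In R 4.3.3, edgeR 4.0.16 kept 14133 genes (filterByExpr on the 4 groups), scaled libraries by TMM, fitted 1 mean per group over all 12 libraries and tested 4 contrasts by quasi-likelihood. P-values were adjusted over all tested genes (Benjamini-Hochberg), and rose, fell, higher or lower as a call means under 0.05. SE is the absolute log2 fold change divided by the square root of the quasi-likelihood F statistic. It is not a fitted coefficient error and is unreliable for members with few reads. CPM uses TMM-scaled totals, and CPM per kb divides it by the shortest GENCODE 29 transcript with the gene's longest coding sequence. A fold against a group without reads is a bound against 3 counts over the group. Length and GC content of the longest coding transcript were found for 14054 tested genes (99.4%), and a smooth surface over both was fitted per library with mgcv 1.9.3 (prior count 2) and passed to edgeR as an offset. Shared words are 31-base strings of annotated transcripts. The count test was tested on simulated data.

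The family's members, classes, the 4 further lists and the alternatives were chosen with earlier results of these data known. Keratins with a group mean of at least 10 CPM are given in full, other tested members by counts and up to 2 examples a class with the smallest p, and other lists by up to 3 called genes a line with the smallest p; names beyond that were added after their values were seen. Alternatives were DESeq2 1.42.0 and its size factors, no filter on low counts, the offset, and mitochondrially encoded genes left out. Further ones were members of similar sequence summed, a fit of only the 2 groups compared and each library left out. The offset with another transcript per gene, and the offset without E7, were added after the data were seen.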

Additional observations from a re-analysis of the deposited data

Results flagged for a closer look

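The extract effect differed between the lines in a direct test (HCC1937 minus MDA-MB-231, edgeR, adjusted over all tested genes) for 4 of the 24 tested keratins. KRT32 was higher and KRT7, KRT17 and KRT80 were lower, where 11.5% of all tested genes were higher and 20.6% lower. Many of the 24 had few or no reads in MDA-MB-231, so their difference could hardly be called. Of the 8 keratins with a group mean of at least 1 CPM in both lines, 0 were higher and 3 lower. Whether such calls were more frequent among keratins was not tested. For KRT17 the difference was -2.61, from log2 fold changes of 1.18 in HCC1937 and 3.79 in MDA-MB-231, and for KRT7 it was -1.34, from 1.25 and 2.59. KRT80 differed by -1.33, from 0.57 and 1.91, and KRT32 by 2.78, from 1.39 and -1.39. KRT7 and KRT80 rest on at least 1066 reads in each group, while KRT17 had 6 reads in MDA-MB-231 controls and KRT32 between 9 and 48 reads in each group. All 4 differences kept their sign and call with the length and GC offset (-2.85, -1.51, -1.59 and 2.52) and without library E7 (-2.29, -1.06, -1.48 and 2.80).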

How the results depend on the processing

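No paired analysis was possible because the groups share no replicate numbers. Counts of keratins that changed call by over 1.5 times did so mostly with the length and GC offset; its construction removes what genes of like length and GC content share, and the cause behind that share was not tested. In HCC1937, rises among keratins were 15, and 8 with the offset or with its other transcript choice; falls were 5, and 9, 8 and 9 with the offset, with the other transcript choice and with the offset without E7. In MDA-MB-231, rises were 7, and 4 with the offset, with or without E7; falls were 2, 4 with the offset without E7, and 1 with only the 2 groups compared (1 to 2 when single libraries were left out). Keratins whose extract effect was higher in HCC1937 numbered 1, and 2 with the other transcript choice, with the offset without E7 and with DESeq2 (1 to 5 over left-out libraries, with 5 without E7: KRT8, KRT10, KRT18, KRT19 and KRT32). Keratins lower in HCC1937 controls numbered 1, and 2 with the other transcript choice. Single genes turned sign as follows. In HCC1937, KRT5 was -0.57, -0.45 and -0.55 with the offset, the other transcript choice and the offset without E7; KRT16 was -0.66, -0.51 and -0.63, and KRT80 -0.09, -0.02 and -0.07. KRT19 was -0.71 with the offset and -0.69 with the offset without E7 in HCC1937, and -1.36 with the latter in MDA-MB-231, where KRT8 was -0.04. The difference between the lines ran from -0.67 to 0.29 for KRT10 and from -0.29 to 0.24 for KRT18 over left-out libraries, above 0 without E7. For KRT18 it was -0.13 with the offset without E7, again called. Desmosome and linker rises in HCC1937 were 8 with only the 2 groups compared (5 to 8 over left-out libraries). Among other filament genes, falls in MDA-MB-231 were 1, and 3, 3 and 5 with the 3 offsets (1 to 2 over left-out libraries); HCC1937 rises were 3, and 1 with the offset or the other transcript choice, and falls 3, and 7, 6 and 7 with the 3 offsets and 5 with only the 2 groups compared (2 to 5). Epithelial regulators gave 2 rises in HCC1937 with each of the 3 offsets (3 to 6 over left-out libraries), 7 to 12 falls over left-out libraries, and 8 falls in MDA-MB-231 with the offset without E7. Cornified envelope genes in MDA-MB-231 gave 0, 0 and 1 rises and 2, 1 and 4 falls with the 3 offsets, and 0 rises with only the 2 groups compared (1 to 3 over left-out libraries); in HCC1937 they gave 4, 5 and 5 rises and 11, 10 and 12 falls with the 3 offsets. DESeq2 size factors moved the summed log2 ratios in HCC1937 to 0.97 for all keratins, 1.53 for simple, -1.0 for basal, 1.27 for stress-induced, -0.53 for suprabasal, 0.64 for type I and 1.32 for type II keratins, beside 0.87, 1.43, -1.10, 1.18, -0.62, 0.55 and 1.22 with TMM. The median of all genes in HCC1937 was -0.158 with TMM, -0.0649 with DESeq2 size factors and -0.0516 in the fit of that line alone, so rises and falls are relative to that shift. Depth limits the low members: 3 counts equal between 0.099 and 0.213 CPM, depending on the library.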

Other observations

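Keratins that neighbour each other in the genome did not all move alike in HCC1937. On chromosome 17, KRT13 (starting at 41500981) and KRT15 (41513743), which lie next to KRT19 (41523617), fell, with log2 fold changes of -0.65 and -1.69. The next tested keratins along that chromosome were KRT9 (41565841), not called at 0.44, and KRT14 (41582279), KRT16 (41609778) and KRT17 (41619441), which rose by 2.01, 0.48 and 1.18. With the length and GC offset KRT16 turned to -0.66 and KRT17 was not called at 0.04, while KRT13, KRT15 and KRT14 kept direction and call. On chromosome 12, KRT3 (52789685), which rose by 1.83, and KRT78 (52837804), which rose by 1.84, are the nearest tested keratins on either side of KRT4 (52806549), which fell by 1.61 on the log2 scale. Positions are GRCh38 starts from GENCODE 29.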
